A study of Mus musculus with 27 samples.

Results

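The miR-7 and miR-671 microRNAs, which bind the circular RNA Cdr1as, were followed in mouse cortex during the day that follows a transient stroke. They were chosen by name as 4 entries of a table of 1842 mature miRNAs: mmu-miR-7a-5p, mmu-miR-7b-5p, mmu-miR-671-5p and mmu-miR-671-3p, written without the species prefix from here on. The choice went by name, with no threshold on a value, and was made with earlier results of these data known. Small RNA was sequenced from the cortex of wild-type C57BL6 mice, an inbred strain, aged 7 to 8 weeks. The stroke model was middle cerebral artery occlusion (MCAO), in which a suture advanced through the right carotid blocks the artery that supplies the lateral cortex, here for 35 min, before blood flow is let back. Ipsilateral cortex (the occluded side) and contralateral cortex (the opposite side of operated animals) were taken after 3, 6, 12 and 24 h of reperfusion. Sham animals had the same anaesthesia and exposure of the arteries with no suture inserted, and their label gives no reperfusion time. Each of these 9 groups has 3 libraries, 27 in all, and the replicate number stands for a day of surgery. No source used here says whether both hemispheres of a given number were taken from 1 mouse.

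Cdr1as, also called CiRS-7, is a circular RNA of neurons that carries a dense array of binding sites for miR-7. It also carries a nearly perfect site for miR-671, and pairing with miR-671 leads Argonaute-2 to slice the circle. The long noncoding RNA Cyrano holds a near-perfect miR-7 site that directs the decay of miR-7, which makes the level of miR-7 in brain depend on RNAs that bind it. miR-7 is known in pancreatic islets, the pituitary and in neurons, where its targets include the mRNA of alpha-synuclein. Cdr1as and Cyrano are long RNAs and were not measured in these libraries of short inserts.

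A miRNA finds its targets mainly through its seed, bases 2 to 8 counted from its 5′ end. The 4 mature sequences are shown because the seeds define which members share targets and because near-identical members may share reads. They are from RefSeq (GRCm38.p6), 5′ to 3′, with the seed in capitals.
miR-7a-5p: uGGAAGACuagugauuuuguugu
miR-7b-5p: uGGAAGACuugugauuuuguuguu
miR-671-5p: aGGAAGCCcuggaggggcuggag
miR-671-3p: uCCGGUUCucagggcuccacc
miR-7a-5p and miR-7b-5p share their seed with each other and with no other sequence in the RefSeq table. Over the 23 bases they have in common they differ by 1 substitution, A10U, with positions counted from 1 at the 5′ end and miR-7a-5p read first. The seed of miR-671-5p differs from that of miR-7a-5p by 1 of 7 bases, A7C. It is held by no other sequence in that table, and the same is true of the seed of miR-671-3p. No source used here says how the authors assigned reads that match both miR-7 sequences or more than 1 place in the genome. The split between miR-7a-5p and miR-7b-5p is therefore uncertain, and their sum is given as well. Whether such reads were left out of the counts is not known, so the level of the sum is uncertain too.

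In the GRCm38 annotation, miR-7a-5p is made from a pair of hairpins. Mir7-1 lies at chr13:58392779-58392886 on the minus strand, within an intron of Hnrnpk, and its mature strand spans chr13:58392841-58392863. Mir7-2 lies at chr7:78888277-78888373 on the plus strand and overlaps no other gene, and its mature strand spans chr7:78888295-78888317. Reads of miR-7a-5p cannot be told apart by hairpin, since the mature strand is the same. Mir7b lies at chr17:56242988-56243098 on the plus strand, outside other genes, with miR-7b-5p at chr17:56243017-56243040. Mir671 lies at chr5:24592114-24592211 on the plus strand. Its hairpin is inside a coding exon of Chpf2 on the same strand and overlaps an exon of Smarcd3 on the opposite strand. miR-671-5p spans chr5:24592132-24592154 and miR-671-3p spans chr5:24592171-24592191. The hairpin is shown because both of its arms were counted and moved differently, with the arms in capitals.
Mir671 hairpin: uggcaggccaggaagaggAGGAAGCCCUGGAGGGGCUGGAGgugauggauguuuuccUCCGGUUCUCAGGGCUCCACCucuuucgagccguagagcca
The 2 miR-671 strands are rich in G and C, at 69.6% for miR-671-5p and 66.7% for miR-671-3p. The miR-7 strands hold 34.8% (miR-7a-5p) and 33.3% (miR-7b-5p).

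Total counts per library ranged from 856591 to 1903416. Levels are CPM, counts scaled to a common library size, with TMM factors that assume most entries equal between libraries. The factors ranged from 0.676 to 1.51, so this choice moves levels, and the alternatives are given where they change a direction. A call is an adjusted p under 0.05 in edgeR's quasi-likelihood test, fitted to all 27 libraries and adjusted by Benjamini-Hochberg over the 1470 entries tested. Folds are given as log2 fold changes ± SE. All 4 members passed the filter on low counts. The samples were labelled cortex, and the 6 neuronal marker miRNAs (miR-124-3p, miR-9-5p, miR-128-3p, miR-137-3p, miR-138-5p and miR-218-5p) were found in every group, with sums of 65486 to 195790.2 CPM per library. The miR-200 and miR-183 clusters, known from epithelium and sensory cells, stood apart in 2 libraries, with sums of up to 25454 CPM in ipsilateral cortex at 6 h and up to 29811 CPM in sham. At 24 h those sums were 568 to 959.6 CPM in ipsilateral cortex, against 443 to 497 CPM in contralateral cortex, and their part in the 24 h results was not tested. Without the 6 h library, replicate 3, the log2 fold change of miR-671-5p between hemispheres at 6 h was 0.62 (0.77 with it), and no call on a member changed. Without any 1 of the sham libraries, miR-671-5p and miR-671-3p were still called at 24 h against sham, with edgeR adjusted p values of up to 0.0035 for miR-671-5p and 0.045 for miR-671-3p. In bulk tissue, fewer cells of a type and less RNA per cell cannot be told apart.

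miR-671-5p, the strand known to pair with Cdr1as, was the member that differed most between the hemispheres. It rose 7.42-fold in ipsilateral against contralateral cortex at 24 h and 3.50-fold at 12 h, the second in a call that was lost without any 1 of 4 libraries. miR-671-3p, the other strand of the same hairpin and the more abundant one here, rose 2.30-fold at 24 h, in a test that rested on 1 library. miR-7a-5p and miR-7b-5p passed the test in no comparison. Across the table, 13.3% of entries were called at 24 h and 4.35% at 12 h, and none at 3 or 6 h, so a call at 24 h was not rare in these data. At 24 h, 11.8% of entries were called higher and 1.43% lower.

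**Figure D1:**
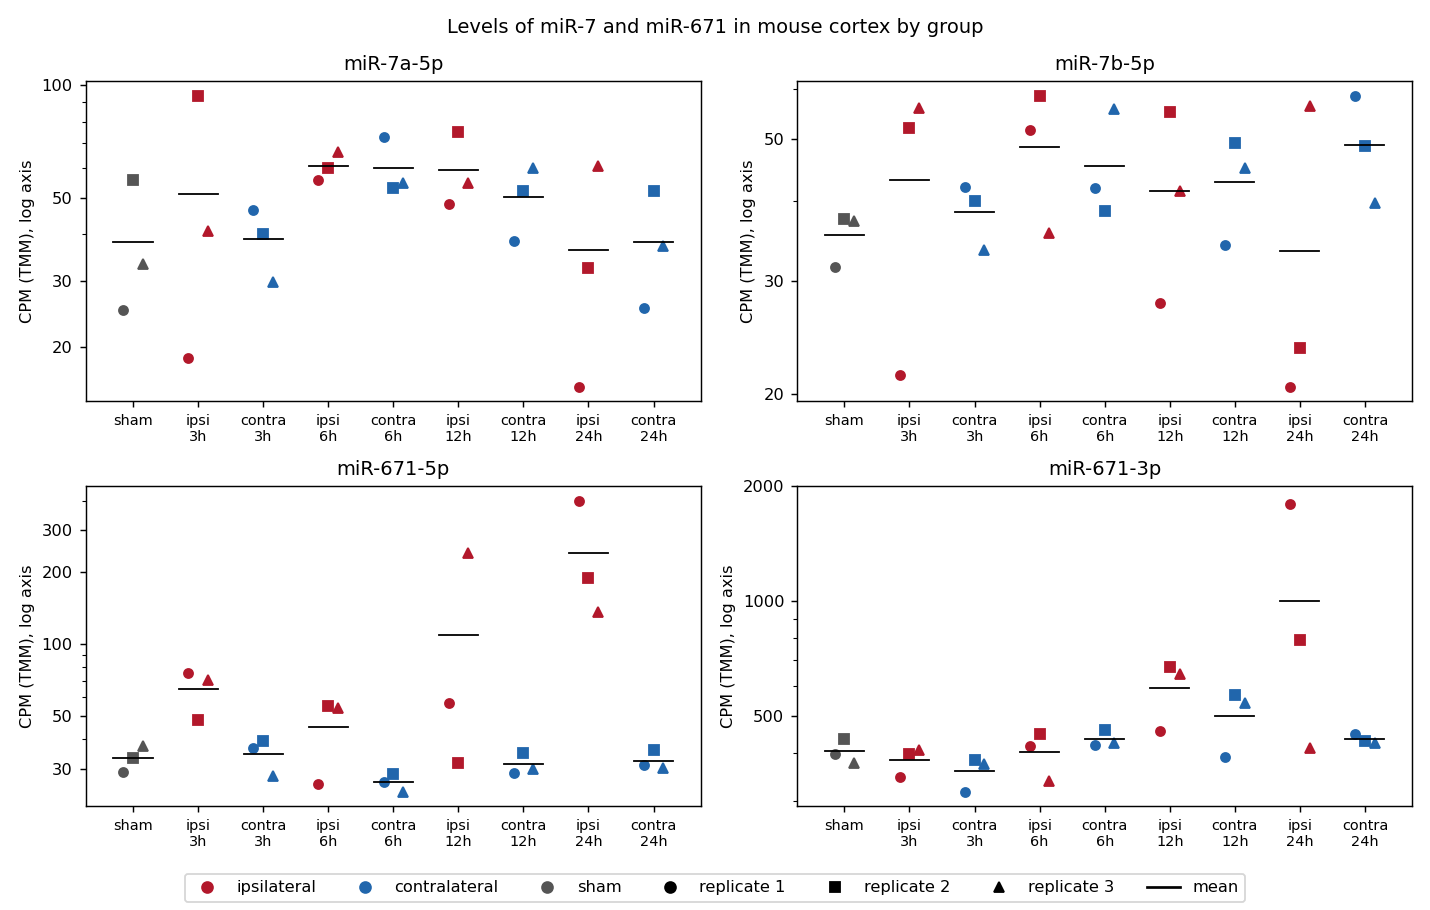
Level of each miRNA (CPM with TMM factors, log axis) in each library, with sham at the left and ipsilateral before contralateral cortex at each reperfusion time. Symbols mark the replicate number and the line is the group mean. The 3 ipsilateral libraries at 24 h lie at 137 to 400.0 CPM of miR-671-5p, above all sham and contralateral libraries, while miR-7a-5p and miR-7b-5p overlap between the hemispheres at each time.

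miR-7a-5p averaged 48.1 ± 18.1 CPM over the 27 libraries (SD) and held rank 403 by mean level among the tested entries. Its counts per library were 23 to 119, so counting error alone is wide: the lowest library, replicate 1 of ipsilateral cortex at 24 h, had 22.5 CPM of the total with a 95% Wilson interval of 15.0 to 33.8 CPM. Such intervals cover counting error only. At 3 h miR-7a-5p was at 18.7, 93.8 and 40.9 CPM in ipsilateral cortex (replicates 1, 2 and 3), against 46.6, 40.0 and 29.9 CPM in contralateral cortex. At 6 h it was at 55.7, 60.2 and 66.3 CPM in ipsilateral cortex, against 72.8, 53.3 and 54.8 CPM in contralateral cortex. The ipsilateral libraries at 3 h held both the lowest and the highest value of that time, and the groups overlapped at both times.

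At 12 h miR-7a-5p was at 48.3, 74.8 and 54.7 CPM in ipsilateral cortex, against 38.5, 52.2 and 60.0 CPM in contralateral cortex. At 24 h it was at 15.7, 32.6 and 61.0 CPM in ipsilateral cortex, against 25.4, 52.1 and 37.3 CPM in contralateral cortex. The sham libraries had 25.1, 55.9 and 33.3 CPM. The hemispheres overlapped at both times, and the ipsilateral libraries at 24 h spanned the range of the contralateral ones and beyond. In order of the group means, the highest were ipsilateral cortex at 6 h (60.7 ± 5.33 CPM), contralateral cortex at 6 h (60.3 ± 10.9 CPM) and ipsilateral cortex at 12 h (59.3 ± 13.8 CPM; SD, n = 3 each). The lowest was ipsilateral cortex at 24 h (36.4 ± 22.9 CPM), next to sham (38.1 ± 15.9 CPM) and contralateral cortex at 24 h (38.3 ± 13.4 CPM). The ranges of all neighbours in this order overlapped.

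The log2 fold change of miR-7a-5p, ipsilateral over contralateral, was 0.39 ± 0.46 at 3 h, 0.01 ± 0.46 at 6 h, 0.24 ± 0.47 at 12 h and -0.08 ± 0.47 at 24 h. At 24 h its 95% interval ran from -1.04 to 0.89 (edgeR adjusted p = 0.944), and the sign turned with the scaling, to 0.40 with library totals and 0.24 with factors taken from abundant entries. The mean over the 4 times was 0.14 ± 0.23 (edgeR adjusted p = 0.765). Ipsilateral cortex was the higher side in 7 of the 12 pairs of libraries that share a time and a day of surgery.

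miR-7b-5p averaged 42.0 ± 11.4 CPM over the 27 libraries (SD), at rank 424, with counts of 27 to 103. At 3 h it was at 21.4, 52.0 and 56.0 CPM in ipsilateral cortex, against 42.1, 40.0 and 33.5 CPM in contralateral cortex. At 6 h it was at 51.7, 58.5 and 35.6 CPM in ipsilateral cortex, against 41.9, 38.6 and 55.8 CPM in contralateral cortex. The groups overlapped at both times.

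At 12 h miR-7b-5p was at 27.7, 55.2 and 41.5 CPM in ipsilateral cortex, against 34.2, 49.4 and 45.0 CPM in contralateral cortex. At 24 h it was at 20.5, 23.6 and 56.3 CPM in ipsilateral cortex, against 58.4, 48.7 and 39.7 CPM in contralateral cortex. The sham libraries had 31.6, 37.5 and 37.3 CPM. At 24 h replicates 1 and 2 of ipsilateral cortex were below all contralateral and sham libraries, and replicate 3 was above all but 1 of them. The group means were lowest in ipsilateral cortex at 24 h (33.5 ± 19.9 CPM) and highest in contralateral cortex at 24 h (48.9 ± 9.37 CPM; SD, n = 3 each), with sham at 35.5 ± 3.38 CPM, and the ranges of all neighbours in the order overlapped.

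The log2 fold change of miR-7b-5p, ipsilateral over contralateral, was 0.15 ± 0.38 at 3 h, 0.10 ± 0.38 at 6 h and -0.05 ± 0.38 at 12 h, the last of which turned to 0.08 with library totals. At 24 h it was -0.55 ± 0.38, with a 95% interval of -1.33 to 0.23 (edgeR adjusted p = 0.391). The value depended on the scaling, at -0.07 with library totals (edgeR adjusted p = 0.928) and -0.22 with factors taken from abundant entries (edgeR adjusted p = 0.732). Without replicate 3 of ipsilateral cortex at 24 h it was -1.15 (edgeR adjusted p = 0.047). Ipsilateral cortex was the higher side in 6 of 12 pairs.

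Summed, the miR-7 strands had a log2 fold change of 0.03 ± 0.20 over the 4 times, with a 95% interval of 0.771-fold to 1.35-fold (edgeR adjusted p = 0.950). At 24 h the sum gave -0.32 ± 0.39, with an interval of 0.455-fold to 1.40-fold. These intervals say how large a difference the data allow. Among the pairwise comparisons of ipsilateral, contralateral and sham groups and the joint tests over time, 0 of the 2 miR-7 members was called by edgeR, 0 had an unadjusted p under 0.05, and DESeq2 called 0. Against sham, miR-7a-5p had a log2 fold change of -0.07 ± 0.47 and miR-7b-5p of -0.09 ± 0.38 in ipsilateral cortex at 24 h.

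The 3p strands of the miR-7 hairpins, usually called passenger strands, were low as well. They are shown because each names its own hairpin, which the 5p strand of miR-7a does not.
miR-7a-1-3p: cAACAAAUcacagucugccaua
miR-7a-2-3p: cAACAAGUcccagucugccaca
miR-7b-3p: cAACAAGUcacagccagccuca
miR-7a-1-3p, from the hairpin in Hnrnpk, averaged 40.7 CPM over the 27 libraries, miR-7a-2-3p 22.5 CPM and miR-7b-3p 18.0 CPM. For comparison, miR-7a-5p averaged 48.1 CPM and miR-7b-5p 42.0 CPM, so the 5p strands were not far above miR-7a-1-3p. At 24 h miR-7a-1-3p was at 34.7 to 45.0 CPM in ipsilateral cortex, against 24.5 to 56.3 CPM in contralateral cortex. Their log2 fold changes at 24 h were 0.03 ± 0.39 for miR-7a-1-3p, 0.01 ± 0.42 for miR-7a-2-3p and -0.11 ± 0.39 for miR-7b-3p. Of the 3 strands 0 was called by edgeR at 24 h, 0 had an unadjusted p under 0.05, and DESeq2 called 0.

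miR-7a-5p and miR-7b-5p varied together over the 27 libraries, with Pearson's r = 0.65 (permutation p = 4.4e-04, adjusted p = 0.0026 over the 6 pairs of members) and Spearman's rho = 0.56 (permutation p = 0.0031, adjusted p = 0.018). Without the 2 libraries farthest from the median of miR-7a-5p, replicate 1 of ipsilateral cortex at 3 h and at 24 h, r was 0.41. Within the 3 days of surgery r was 0.58, 0.77 and 0.40. The part of reads shared between these near-identical sequences was not tested. Among the 1469 other tested entries, miR-7b-5p was the 11th most like miR-7a-5p and miR-7a-5p the 13th most like miR-7b-5p.

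Among entries with a mean of at least 50 CPM, those most like miR-7a-5p over the 27 libraries were miR-134-5p (Pearson's r = 0.81), miR-541-5p (0.77), miR-873a-5p (0.72), miR-98-5p (0.71) and miR-666-3p (0.67). Those most like miR-7b-5p were miR-26b-5p (0.72), miR-369-5p (0.71), miR-376b-5p (0.69), let-7g-5p (0.69) and miR-30d-5p (0.67). Of these 10 entries, let-7g-5p was called at 24 h, where its log2 fold change of -0.70 had an edgeR adjusted p of 0.041. All libraries share their depth and scaling in these correlations, which are given as a description.

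The neuronal setting was described with a list of 11 neuron-enriched miRNAs. At 24 h their log2 fold changes had a median of -0.55, with values of -0.76 to 1.39, beside a median of 0.08 over all tested entries and -0.46 over the 286 entries with a mean of at least 100 CPM. Of the 11, 0 was called by edgeR, 2 had an unadjusted p under 0.05 (miR-129-2-3p, higher, and miR-9-5p, lower), and DESeq2 called 0. The summed neuronal markers were at 68261 to 101317 CPM in ipsilateral cortex at 24 h, against 107023 to 162216 CPM in contralateral cortex and 97335 to 157394 CPM in sham. This sum mostly follows miR-128-3p, with a mean of 79277 CPM over the 27 libraries, and miR-9-5p, with 31011 CPM. A gap downward between the hemispheres at 24 h was seen for 12.0% of tested entries. The part of the neuronal markers in the miR-7 values was not tested. miR-375-3p, an endocrine and pituitary miRNA known from cells that are rich in miR-7, was at 89.4 to 132 CPM in ipsilateral cortex at 24 h, against 153 to 204 CPM in contralateral cortex. Its log2 fold change of -0.70 ± 0.31 was not called (edgeR adjusted p = 0.148), and such a gap downward was seen for 12.0% of tested entries. The 3 oligodendrocyte markers had a median log2 fold change of -0.53 in the same comparison and the 3 vascular markers of -0.61, with 0 called by edgeR in either list, 1 unadjusted p under 0.05 (miR-143-3p, vascular) and 0 called by DESeq2.

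miR-671-5p was steady outside the occluded cortex. The 12 ipsilateral libraries ranged over 25.9 to 400.0 CPM with a median of 63.8 CPM, whereas the 15 contralateral and sham libraries ranged over 24.1 to 39.4 CPM with a median of 30.3 CPM. At 3 h miR-671-5p was at 75.7, 48.1 and 71.1 CPM in ipsilateral cortex, against 36.8, 39.4 and 28.1 CPM in contralateral cortex. The 3 ipsilateral libraries were above all 3 contralateral ones, as they were above the sham libraries with 29.1, 33.2 and 37.3 CPM. Such a gap upward between hemispheres at 3 h was seen for 94 entries, 6.39% of those tested, and over sham for 7.76%. Its log2 fold change of 0.89 ± 0.49 was not called (edgeR adjusted p = 0.998).

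At 6 h miR-671-5p was at 25.9, 55.0 and 53.9 CPM in ipsilateral cortex, against 26.5, 28.5 and 24.1 CPM in contralateral cortex. Replicate 1 lay within the contralateral range and the others above it. Its log2 fold change of 0.77 ± 0.51 was not called (edgeR adjusted p = 0.988). At 3 h and at 6 h, 0 of the 4 members was called, 0 had an unadjusted p under 0.05 and DESeq2 called 0.

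At 12 h miR-671-5p was at 56.5, 31.9 and 240.0 CPM in ipsilateral cortex, against 28.9, 35.1 and 30.0 CPM in contralateral cortex. Replicate 3 exceeded its contralateral counterpart of the same day by 3.00 on the log2 scale, replicate 1 was above the contralateral range and replicate 2 within it. The log2 fold change was 1.81 ± 0.51, with a 95% interval of 0.76 to 2.85 (edgeR adjusted p = 0.039). Without replicate 3 of the ipsilateral group it was 0.50 and the call was lost. The call was also lost without any 1 of the contralateral libraries (edgeR adjusted p = 0.13 to 0.16) and with the replicate number as a block (1.72, edgeR adjusted p = 0.085).

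At 24 h miR-671-5p was at 400.0, 189 and 137 CPM in ipsilateral cortex, against 31.1, 36.1 and 30.3 CPM in contralateral cortex. All 3 ipsilateral libraries were above every sham and contralateral library of the series. Such a gap upward between hemispheres at 24 h was seen for 16.3% of tested entries, and over sham for 17.3%. The ipsilateral mean was 242 ± 139 CPM, against 32.5 ± 3.15 CPM (SD, n = 3 each). The log2 fold change was 2.89 ± 0.52, with a 95% interval of 3.53-fold to 15.6-fold (edgeR adjusted p = 3.0e-04), at rank 78 of 1470 by size. It was called under all 14 alternatives run, with log2 fold changes of 2.33 to 3.44. In order of the group means, ipsilateral cortex at 24 h was followed by ipsilateral cortex at 12 h (109 ± 114 CPM), 3 h (64.9 ± 14.8 CPM) and 6 h (44.9 ± 16.5 CPM), then by contralateral cortex at 3 h (34.8 ± 5.91 CPM), sham (33.2 ± 4.09 CPM) and contralateral cortex at 24 h, 12 h (31.3 ± 3.34 CPM) and 6 h (26.3 ± 2.19 CPM; SD, n = 3 each). The ranges of neighbours overlapped in this order, except those of contralateral cortex at 12 h and at 6 h.

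**Figure D2:**
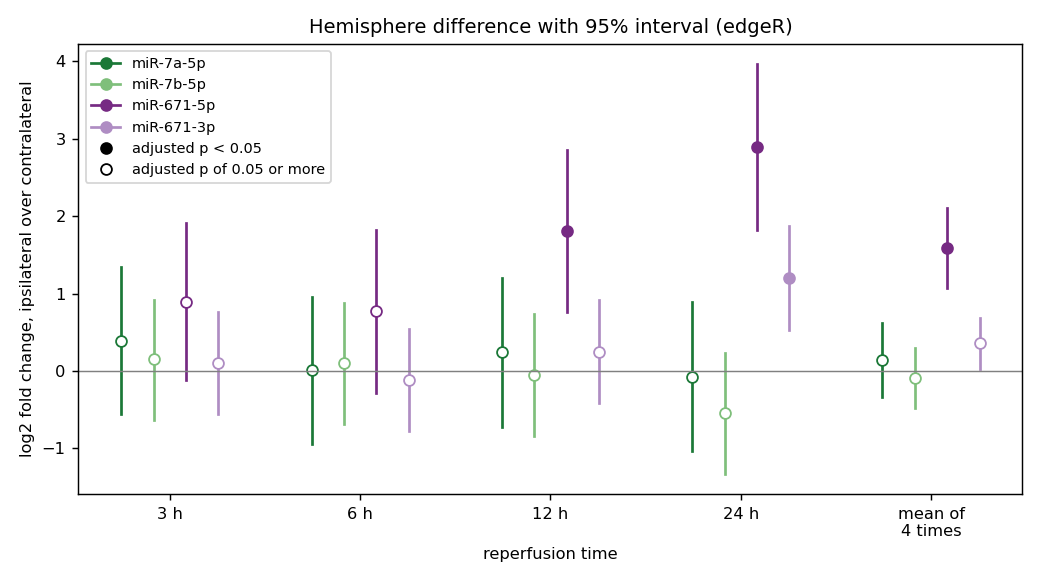
Log2 fold change of ipsilateral over contralateral cortex at each reperfusion time and averaged over the 4 times, with 95% intervals from the edgeR fit. Filled points passed the threshold of 0.05 on the adjusted p. The intervals of miR-671-5p at 12 h (0.76 to 2.85) and 24 h lie above 0, as does that of miR-671-3p at 24 h. For the mean of the 4 times, those of miR-671-5p (1.07 to 2.11) and miR-671-3p (0.03 to 0.69, not called) also lie above 0. The intervals of miR-7a-5p and miR-7b-5p include 0 throughout.

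Averaged over the 4 times, the log2 fold change of miR-671-5p was 1.59 ± 0.25 (edgeR adjusted p = 5.2e-05), where 11.6% of all entries were called. Ipsilateral cortex was the higher side in 10 of 12 pairs of the same time and day. The 2 others, replicate 1 at 6 h and replicate 2 at 12 h, differed little, down to -0.14 on the log2 scale. The test that the hemispheres differ at any time called miR-671-5p (edgeR adjusted p = 3.8e-04; 8.98% of entries). The test that their difference changes over time did not (edgeR adjusted p = 0.349; 0.612% of entries), so the larger value at 24 h than at 3 h was not shown to be a change in the difference. Within ipsilateral cortex miR-671-5p changed over time (edgeR adjusted p = 0.0037; 9.59% of entries), and without replicate 1 at 24 h that adjusted p was 0.077. In contralateral cortex it was not called (edgeR adjusted p = 0.999; 0% of entries).

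Against sham, miR-671-5p was higher in ipsilateral cortex at 12 h (log2 fold change 1.73 ± 0.50, edgeR adjusted p = 0.043) and at 24 h (2.86 ± 0.52, edgeR adjusted p = 2.8e-04), where 5.44% of entries were called at 12 h and 12.7% at 24 h. Its mean over the 4 times against sham, 1.50 ± 0.43, was not called (edgeR adjusted p = 0.051; 3.54% of entries). These comparisons share their ipsilateral libraries with those above and are no separate test. The call at 12 h was lost without replicate 3 of ipsilateral cortex (0.42), without any 1 of the sham libraries and with the replicate block (1.65, edgeR adjusted p = 0.076). Contralateral cortex against sham gave log2 fold changes of -0.33 ± 0.51 to 0.07 ± 0.50 over the 4 times. In that comparison 0 of the 4 members was called at any time, 0 had an unadjusted p under 0.05 and DESeq2 called 0. Over all entries edgeR called 0% at each of the 4 times and 0.272% for the mean of the times.

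Several measures at 24 h are given beside miR-671-5p. The 5 entries most like it over the 27 libraries, among those with a mean of at least 50 CPM, were miR-6538, miR-5130, miR-8102, miR-341-5p and miR-6240, each at r = 0.95. Their log2 fold changes at 24 h were 5.20 for miR-6538, 4.68 for miR-5130, 2.91 for miR-8102, 4.57 for miR-341-5p and 5.72 for miR-6240, all called. These entries were picked by likeness over the same libraries, in which ipsilateral cortex at 24 h had the highest group mean of miR-671-5p. Large values at 24 h thus follow largely from the choice and are no separate result. Of entries whose mature sequence has at least 60% G and C, as both miR-671 strands have, 24.2% (85 of 351) were called higher at 24 h, against 6.8% (64 of 939) of those with less. This cut of 60% was chosen after the values were seen, and the difference between the shares was not tested. Of entries whose position lies within an exon of a protein-coding gene on the same strand, as miR-671 does, 20.9% (37 of 177) were called higher, against 10.1% (112 of 1113) elsewhere. The summed leukocyte and microglia markers were at 1032 to 1575 CPM in ipsilateral cortex at 24 h, against 1442 to 2072 CPM in contralateral cortex, beside the median log2 fold change of -0.46 of abundant entries. The most abundant of them, miR-150-5p, differed by -0.63 ± 0.37 on the log2 scale, with an edgeR adjusted p of 0.318. miR-155-5p, a miRNA of activated immune cells, differed by 0.62 ± 0.38, with an edgeR adjusted p of 0.348. Of the 5 of 6 such markers tested between the hemispheres at 24 h, 0 was called by edgeR, 0 had an unadjusted p under 0.05, and DESeq2 called 0. Against sham at 24 h 0 was called by either tool, and miR-155-5p and miR-150-5p had an unadjusted p under 0.05. The part of base composition, host position or these cells in the miR-671 values was not tested.

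**Figure D3:**
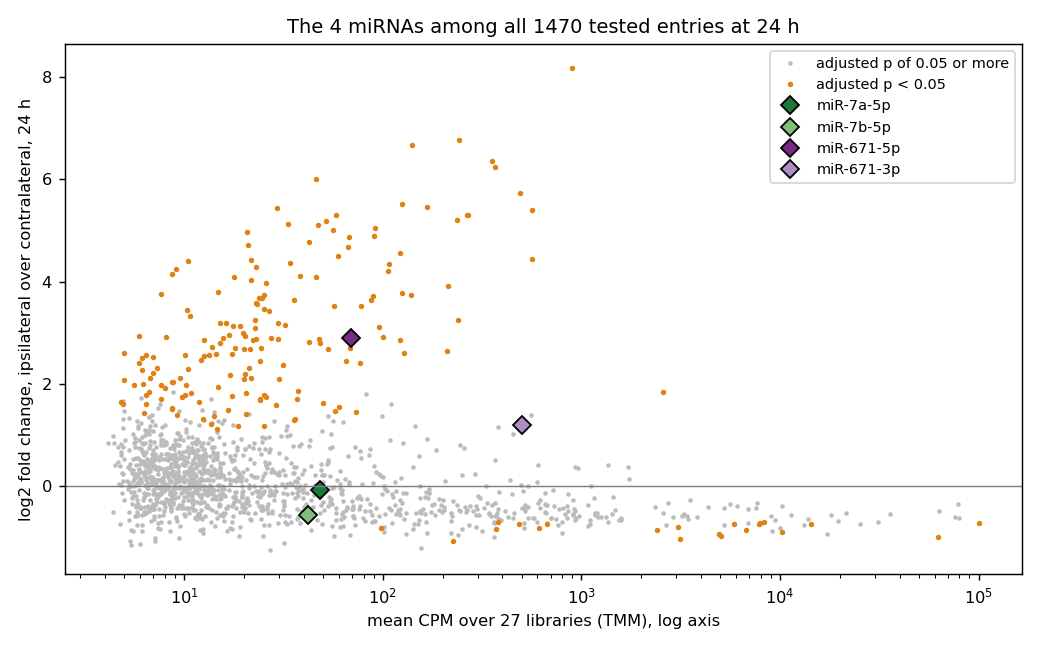
Log2 fold change of ipsilateral over contralateral cortex at 24 h against mean level (CPM over 27 libraries, log axis) for all 1470 tested entries, with called entries in orange and the 4 miRNAs as diamonds. miR-671-5p lies at 2.89 and miR-671-3p at 1.20, while miR-7a-5p (-0.08) and miR-7b-5p (-0.55) lie among the entries that were not called.

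miR-671-3p averaged 502 ± 280.1 CPM over the 27 libraries (SD), at rank 133, with counts of 364 to 2632, so counting error is small for it. At 3 h it was at 347, 399 and 409 CPM in ipsilateral cortex, against 317, 385 and 375 CPM in contralateral cortex. At 6 h it was at 418, 449.6 and 338 CPM in ipsilateral cortex, against 420.4, 461 and 426 CPM in contralateral cortex. The hemispheres overlapped at both times, and the log2 fold change was 0.10 ± 0.32 at 3 h and -0.12 ± 0.32 at 6 h, the second of which was 0.03 with library totals.

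At 12 h miR-671-3p was at 457, 674 and 646 CPM in ipsilateral cortex, against 390.1, 568 and 542 CPM in contralateral cortex. At 24 h it was at 1796, 792 and 414 CPM in ipsilateral cortex, against 449, 430.1 and 425 CPM in contralateral cortex. The sham libraries had 399, 437 and 378 CPM. The ipsilateral libraries at 12 h were above all sham libraries, as for 6.12% of tested entries, and overlapped the contralateral ones. At 24 h replicates 1 and 2 were above every sham and contralateral library of the series and replicate 3 was below the 3 contralateral ones. The group means were highest in ipsilateral cortex at 24 h (1001 ± 714 CPM) and 12 h (592 ± 118 CPM) and lowest in contralateral cortex at 3 h (359 ± 36.7 CPM; SD, n = 3 each), and the ranges of all neighbours in the order overlapped.

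The log2 fold change of miR-671-3p was 0.24 ± 0.32 at 12 h and 1.20 ± 0.32 at 24 h, with a 95% interval of 1.45-fold to 3.66-fold (edgeR adjusted p = 0.011). Without replicate 1 of ipsilateral cortex at 24 h it was 0.48 (edgeR adjusted p = 0.436), so the call rests on that library. Against sham at 24 h it was 1.31 ± 0.33 (edgeR adjusted p = 0.0062), and 0.58 without the same library (edgeR adjusted p = 0.298). Averaged over the 4 times it was 0.36 ± 0.16 (edgeR adjusted p = 0.186), or 0.60 with library totals (edgeR adjusted p = 0.014), with ipsilateral cortex higher in 8 of 12 pairs. miR-671-3p changed over time within ipsilateral cortex (edgeR adjusted p = 0.0081), and without replicate 1 at 24 h that adjusted p was 0.185.

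The entries most like miR-671-3p were miR-668-3p (Pearson's r = 0.88), miR-181b-1-3p (0.85), miR-7093-3p (0.79), miR-7046-3p (0.79) and miR-7237-3p (0.76). The other miR-671 strand held rank 68 for it, and miR-671-3p held rank 176 for miR-671-5p. Over the 27 libraries the miR-671 strands had Pearson's r = 0.65 (permutation p = 0.0015, adjusted p = 0.0046 over the 6 pairs of members) and Spearman's rho = 0.14 (permutation p = 0.48, adjusted p = 0.6). Without the 2 libraries farthest from the median of miR-671-5p, replicate 3 of ipsilateral cortex at 12 h and replicate 1 at 24 h, r was 0.24, so the relation rests on those libraries. Over the 23 libraries without replicate 3 of ipsilateral cortex at 12 h and all of ipsilateral cortex at 24 h, r was -0.26. Within the 3 days of surgery r was 0.86, 0.56 and 0.46. Between a miR-7 strand and a miR-671 strand, r ranged over -0.42 to -0.29, and no such pair passed after adjustment over the 6 pairs (the lowest adjusted permutation p was 0.052, for miR-7b-5p and miR-671-5p). The negative sign of those pairs did not hold throughout. Spearman's rho was -0.16 to 0.12 (permutation p = 0.42 to 0.6, each adjusted to 0.6). Without the 2 libraries farthest from the median of the miR-7 strand r was -0.16 to 0.09, over the same 23 libraries it was -0.24 to 0.44, and on the third day of surgery it was 0.21 to 0.39.

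The share of miR-671-5p among reads of both miR-671 arms needs no scaling between libraries. At 24 h it was 18.2%, 19.2% and 24.9% in ipsilateral cortex, against 6.47%, 7.75% and 6.67% in contralateral cortex. The 95% Wilson interval of the lowest ipsilateral value was 16.9% to 19.6% and that of the highest contralateral value 5.8% to 10.3%. All 3 ipsilateral libraries had a higher share than any sham or contralateral library, including the one in which miR-671-3p was not raised.

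At 3 h the share was 17.9%, 10.8% and 14.8% in ipsilateral cortex, against 10.4%, 9.28% and 6.97% in contralateral cortex. At 6 h it was 5.83%, 10.9% and 13.7% in ipsilateral cortex, against 5.93%, 5.82% and 5.35% in contralateral cortex. At 12 h it was 11%, 4.51% and 27.1% in ipsilateral cortex, against 6.89%, 5.83% and 5.25% in contralateral cortex. The hemispheres did not overlap at 3 h and did at 6 and 12 h, and the 4.51% of replicate 2 at 12 h was the lowest share of the series. The gap at 3 h was narrow. Its nearest libraries had overlapping 95% Wilson intervals, 8.47% to 13.6% in ipsilateral replicate 2 and 8.54% to 12.6% in contralateral replicate 1. How often other hairpins show such a gap in arm share, at 3 h or at 24 h, was not tested. The sham libraries had 6.81%, 7.05% and 8.98%.

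As a log2 ratio, miR-671-5p over miR-671-3p was -2.67 ± 0.88 in ipsilateral cortex, against -3.77 ± 0.32 in contralateral cortex (SD, 12 libraries each), a difference of 1.10. An exact two-sided permutation test of hemisphere within each time, over all 160000 regroupings, gave p = 4.7e-04, or 0.0014 after adjustment over the 3 ratios compared. The ipsilateral ratio was higher in 10 of 12 pairs. Per time the difference was 0.78 at 3 h, 0.81 at 6 h, 1.02 at 12 h and 1.78 at 24 h, where 3 against 3 libraries allow no exact p below 0.10. In the same libraries the log2 fold change over the 4 times was 1.59 for miR-671-5p and 0.36 for miR-671-3p. This ratio thus largely carries the difference of miR-671-5p and is no separate test of it.

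The summed miR-7 strands over miR-671-5p had a log2 ratio of 0.07 ± 1.67 in ipsilateral cortex, against 1.52 ± 0.35 in contralateral cortex (SD, 12 libraries each), a difference of -1.45 (exact permutation p = 0.0021, adjusted p = 0.0031). The summed miR-7 strands alone had a log2 fold change of 0.03 ± 0.20 over the 4 times. The ratio thus mostly restates the difference of miR-671-5p in the same libraries and is no separate test. At 24 h the ratio averaged -1.81 ± 1.61 in ipsilateral cortex, against 1.41 ± 0.07 in contralateral cortex (SD, n = 3 each; exact permutation p = 0.10, the smallest this design allows). All 3 ipsilateral libraries at 24 h were below 0, at -3.45 to -0.23, so reads of miR-671-5p outnumbered those of the miR-7 strands there. In contralateral cortex reads of the miR-7 strands together outnumbered those of miR-671-5p in every library. These are counts of reads of unlike sequences, and how they relate to numbers of molecules was not tested. The ratio of miR-7a-5p to miR-7b-5p averaged 0.26 ± 0.46 in ipsilateral cortex, against 0.06 ± 0.47 in contralateral cortex (SD, 12 libraries each; exact permutation p = 0.28).

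**Figure D4:**
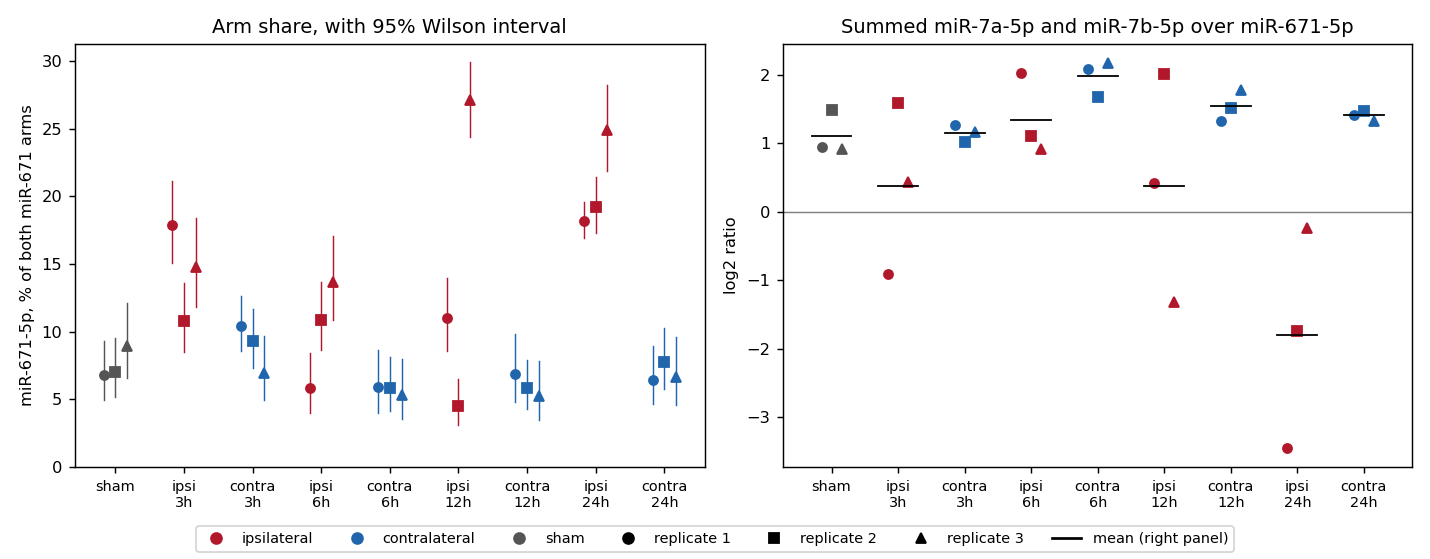
Left, the percentage of miR-671 reads that come from the 5p arm in each library, with 95% Wilson intervals. Right, the log2 ratio of summed miR-7a-5p and miR-7b-5p to miR-671-5p, with group means as lines. At 24 h the arm share is 18.2% to 24.9% in ipsilateral cortex, against 6.47% to 7.75% in contralateral cortex, and the ratio is below 0 in all 3 ipsilateral libraries.

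Within ipsilateral cortex at 24 h the miR-671 strands and the miR-7 strands ordered the 3 libraries in opposite ways, which is a description of 3 libraries without a test. The 5p share of miR-671 was lowest in replicate 1 (18.2%) and highest in replicate 3 (24.9%), opposite to the level of miR-671-5p. Replicate 1 had the most miR-671-5p (400.0 CPM) and miR-671-3p (1796 CPM) and the least miR-7a-5p (15.7 CPM) and miR-7b-5p (20.5 CPM). Replicate 3 had the least of both miR-671 strands and the most of both miR-7 strands, at 61.0 CPM of miR-7a-5p and 56.3 CPM of miR-7b-5p. The contralateral libraries of the same days were all within 425 to 449 CPM of miR-671-3p and 30.3 to 36.1 CPM of miR-671-5p.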

How the data were processed

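The deposited table holds counts of 1842 mature miRNAs in 27 libraries. They are taken as raw, since they are whole numbers with unequal totals. Per the labels' protocols, total RNA was extracted with Trizol and made into TruSeq small RNA libraries (inserts 15 to 35 bp, single-end reads of 69 bp). The submitters' processing notes name Novoalign and edgeR and give no role or version for either. The authors' genome build, annotation release and treatment of multiply matching reads were not given in the sources used.

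From these counts, 1 mean per group was fitted with edgeR 4.0.16 (R 4.3.3, TMM factors, robust quasi-likelihood, filterByExpr), leaving 18 residual degrees of freedom. P-values were adjusted by Benjamini-Hochberg. Alternatives were other scalings, no filter, a replicate block, each comparison's libraries alone, DESeq2 and leaving out each library. Ratios added 0.5 to each count. Names, sequences and positions came from RefSeq and GENCODE tables of GRCm38. Named entries are the 4 members, their list members and the 5 entries most like each. The members and lists were chosen with earlier results of these data known. Replicate numbers mark surgery days, per the series' design text. Deviations from the group mean correlated at a mean of 0.22 between libraries with the same number. The mean of -0.11 for different numbers follows largely from centring groups of 3 libraries and is no separate comparison. No 2 replicates agreed within sampling noise. The tests were checked on simulated data in which all entries, or both hemispheres, had the same spread and surgery days had no effect. That setting is simpler than these data, where the 2 ratios with miR-671-5p spread more in ipsilateral than in contralateral cortex.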

Additional observations from a re-analysis of the deposited data

Results flagged for a closer look

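miR-671-3p was flagged because its hemisphere difference pointed one way in all 3 same-day pairs at one time and the other way in all 3 at another. In all 3 pairs ipsilateral cortex was higher at 3 h (log2 difference 0.05 to 0.13) and at 12 h (0.23 to 0.25). It was lower at 6 h, by little in replicates 1 and 2 (-0.01 and -0.04) and by -0.33 in replicate 3. With library totals as the scaling, ipsilateral cortex was higher at 6 h in replicates 1 (444 against 435 CPM) and 2 (411 against 361 CPM). Replicate 3 stayed lower (349.6 against 385 CPM), so the turn at 6 h depended on the scaling. The mean log2 difference between hemispheres was larger by 0.23 at 3 h than at 6 h, and by 0.37 at 12 h than at 6 h. These differences between 2 times were not tested by themselves. The joint test that the hemisphere difference changes over time gave an edgeR adjusted p of 0.468 for miR-671-3p.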

How the results depend on the processing

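Of 438 values that 57 results on the members and ratios took under other settings with all libraries, 408 kept their direction and their side of the threshold. Of the 732 values with 1 library left out, 695 did so, 14 turned their sign, 12 lost a call and 11 gained one. Where a value changed, the cause was not tested, except that a fit on the libraries of the comparison alone has fewer samples to estimate the spread. The higher level of miR-671-5p at 24 h, in ipsilateral against contralateral cortex and against sham, was called under 14 of 14 alternatives each (highest edgeR adjusted p 0.0038 and 0.0035), as was its mean over the times under 32 of 32 (1.26 to 1.88). With library totals as the scaling, the median log2 fold change of all entries at 24 h was 0.57, against 0.08 with TMM.

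No value of miR-7 that turned its sign was called. For miR-7a-5p these were -0.04 (DESeq2 size factors, DESeq2), -0.03 (replicate block) and -0.01 (libraries of the comparison alone) at 6 h, and 0.40 (library totals) and 0.24 (TMM factors from abundant entries) at 24 h. For miR-7b-5p they were 0.08 (library totals), 0.06 (no filter) and 0.11 (both strands summed) at 12 h, and 0.09 (library totals) and 0.03 (summed) for the mean of the times. miR-671-3p turned to 0.03 at 6 h and to -0.01 for contralateral cortex against sham over the times, both with library totals.

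The 12 h calls of miR-671-5p were lost against contralateral cortex with abundant-entry TMM factors (1.95), the replicate block (1.72) and the comparison's libraries alone (1.84), and against sham with library totals (1.81), abundant-entry factors (1.68), the block (1.65) and the comparison's libraries alone (1.72). On the comparison's libraries alone, miR-671-3p at 24 h was not called against contralateral cortex (1.13) or sham (1.27), nor were the time courses in ipsilateral cortex of miR-671-5p (adjusted p = 0.177) and miR-671-3p (0.306), edgeR throughout. Calls were gained for miR-671-5p in ipsilateral cortex against sham over the times (1.50, edgeR adjusted p = 0.051) with DESeq2 size factors (1.49), no filter (1.53) and DESeq2 (1.49). For miR-671-3p they were gained for the mean of the times (0.60, library totals) and for any time (edgeR adjusted p = 0.0089 with library totals, 0.023 with abundant-entry factors). The replicate block changed no other call on a member. It left the ratio tests called (p = 0.0029 for miR-671-5p over miR-671-3p, 0.0068 for summed miR-7 over miR-671-5p, exact sign-flip tests over 12 pairs).

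Leaving out each replicate in turn gave these ranges of log2 fold change. miR-671-5p ranged over 0.5 to 2.24 at 12 h, 0.42 to 2.16 at 12 h against sham, and 1.17 to 1.61 for ipsilateral cortex against sham over the times, which was called without 6 single libraries. miR-671-3p ranged over 0.48 to 1.57 at 24 h, 0.58 to 1.68 at 24 h against sham, and 0.17 to 0.45 over the times, called without ipsilateral replicate 3 at 24 h. miR-7a-5p ranged over -0.41 to 0.79, -0.07 to 0.17 and -0.67 to 0.28 at 3, 6 and 24 h and -0.06 to 0.24 over the times. miR-7b-5p ranged over -0.08 to 0.48, -0.06 to 0.28, -0.31 to 0.17 and -1.15 to -0.3 at 3, 6, 12 and 24 h. Adjusted p values from edgeR ranged over 0.0035 to 0.953 for miR-671-3p at any time. For a hemisphere difference that changes over time they ranged over 0.022 to 0.979 for miR-671-5p (lowest without ipsilateral replicate 3 at 12 h) and 0.042 to 1.000 for miR-671-3p. For the time course in ipsilateral cortex they ranged over 9.5e-06 to 0.077 for miR-671-5p and 1.5e-04 to 0.185 for miR-671-3p, both highest without replicate 1 at 24 h.

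Over all entries, edgeR's counts of calls moved most for the comparison's libraries alone, with 1 at 12 h (64) and 11 for the ipsilateral time course (141), and with the block, with 294 at 24 h (195), 257 for the mean (170) and 0 for the change of the difference over time (9, and 46 by DESeq2). Abundant-entry factors gave 39 at 12 h, and DESeq2 gave 11 at 3 h and 4 at 6 h, where edgeR gave 0. Leaving out 1 library gave 10 to 104 calls at 12 h, 109 to 226 at 24 h and 52 to 184 for the ipsilateral time course, lowest without ipsilateral replicate 3 at 12 h, and without ipsilateral replicate 1 for both others. Low counts of the miR-7 strands, 23 to 119 and 27 to 103 per library, give each value a wide counting error.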

Other observations

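At 12 h, 36 of 351 entries (10.3%) with at least 60% G and C in the mature sequence were called higher in ipsilateral cortex, against 18 of 939 (1.9%) with less. The difference between these shares was not tested, and the number of calls at 12 h depended on single libraries. Over all entries there were 64, with 10 when replicate 3 of ipsilateral cortex was left out and 104 when its replicate 2 was. At 24 h the entries called higher had a median of 63.6% G and C (149 with a RefSeq sequence), against 52.4% over all 1290 tested entries with one. The median log2 fold change at 24 h was 0.55 in the G and C rich entries, against -0.08 in the others. The 60% cut was chosen after the values were seen.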
